A study of Mus musculus with 9 samples.

Results

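Type I interferon stimulated genes were followed in whole mouse lung after exposure to the mould Aspergillus fumigatus. A list of 43 genes was matched by symbol, and a gene entered if it reached 1 FPKM in at least 3 of the 9 libraries. FPKM counts sequenced fragments of a gene relative to its transcript length and to the depth of the library. Of the 43 genes, 40 had a row among the 18984 genes of the files, and all 40 were among the 13761 genes that passed this filter. Mx1, Mx2 and Oas1b were not analysed here.

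All lungs came from C57BL/6 mice with no genetic change named in the labels, and were taken 24 hours after inoculation into the trachea. The control group received normal saline. The conidia group received conidia, the resting spores of A. fumigatus, and the hyphae group received hyphal fragments, pieces of its filamentous growth form. Each group had 3 libraries of poly(A) RNA, and the labels give no age, sex or dose. Nothing in them states that replicates are separate animals. Where they are not, p-values reflect only how far these samples spread, and that spread may be technical.

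Type I interferons are secreted cytokines that bind the receptor pair IFNAR1 and IFNAR2, which signals through the kinases JAK1 and TYK2. The complex ISGF3, which holds STAT2 and IRF9, then binds the interferon-stimulated response element (ISRE) in front of its target genes. The targets code for antiviral effectors, for RNA and DNA sensors, and for the signalling proteins themselves, so that the response feeds forward through IRF7 and is damped by USP18. Type III interferons act on epithelium through another receptor and reach much the same genes.

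The promoters of 5 members are shown because they carry the ISRE core that names this gene group and because their genes followed different courses after hyphae. The letters searched were GAAANNGAAA on both strands, which read TTTCNNTTTC on the other strand, and capitals mark every match. Each line is the RefSeq window (GRCm38.p6) from 250 bases before to 50 bases after the transcription start, written 5′ to 3′ in the direction of the gene. Isg15 lies at chr4:156200769-156201068 on the minus strand, Ifit1 at chr19:34640639-34640938, Ifit3 at chr19:34583279-34583578 and Ifit3b at chr19:34607707-34608006 on the plus strand, and Oas1a at chr5:120907476-120907775 on the minus strand.
Isg15: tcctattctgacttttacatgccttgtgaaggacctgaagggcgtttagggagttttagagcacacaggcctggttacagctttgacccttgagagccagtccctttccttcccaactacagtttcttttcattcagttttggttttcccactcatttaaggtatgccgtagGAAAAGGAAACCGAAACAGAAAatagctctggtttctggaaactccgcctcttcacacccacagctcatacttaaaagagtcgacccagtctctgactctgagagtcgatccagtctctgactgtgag
Ifit1: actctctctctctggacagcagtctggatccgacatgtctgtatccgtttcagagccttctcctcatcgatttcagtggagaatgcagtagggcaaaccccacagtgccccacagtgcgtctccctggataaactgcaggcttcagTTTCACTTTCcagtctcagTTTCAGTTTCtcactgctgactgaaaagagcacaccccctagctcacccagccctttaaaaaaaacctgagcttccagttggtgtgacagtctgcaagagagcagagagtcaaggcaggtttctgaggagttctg
Ifit3: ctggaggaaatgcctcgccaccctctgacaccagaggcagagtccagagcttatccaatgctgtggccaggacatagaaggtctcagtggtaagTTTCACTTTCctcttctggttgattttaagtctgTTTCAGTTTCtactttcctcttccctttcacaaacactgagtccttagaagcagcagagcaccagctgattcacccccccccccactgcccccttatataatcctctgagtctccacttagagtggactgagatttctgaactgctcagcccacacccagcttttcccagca
Ifit3b: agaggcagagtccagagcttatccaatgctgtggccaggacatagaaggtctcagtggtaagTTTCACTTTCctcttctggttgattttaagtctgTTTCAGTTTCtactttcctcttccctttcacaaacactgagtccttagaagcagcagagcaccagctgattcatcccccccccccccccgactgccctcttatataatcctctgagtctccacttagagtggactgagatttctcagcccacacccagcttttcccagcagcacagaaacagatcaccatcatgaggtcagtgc
Oas1a: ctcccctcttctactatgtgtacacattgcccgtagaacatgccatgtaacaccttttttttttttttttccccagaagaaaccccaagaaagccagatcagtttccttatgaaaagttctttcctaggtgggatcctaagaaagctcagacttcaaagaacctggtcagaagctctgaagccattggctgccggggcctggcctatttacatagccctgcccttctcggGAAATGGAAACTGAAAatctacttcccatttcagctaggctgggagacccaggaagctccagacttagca

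Isg15 held 3 overlapping matches between positions -78 and -57 from the first transcribed base, and Oas1a held 2 overlapping ones between -20 and -5. In Ifit1 the 2 matches lay on the opposite strand, at -104 to -95 and at -85 to -76. Laid over each other without gaps, the windows of the neighbouring genes Ifit3 and Ifit3b were identical at 201 of 268 overlapping bases. An inserted or missing base puts the rest out of step, so this count can understate their likeness. Both windows carried the same pair of matches, which began at -156 and -122 in Ifit3 and at -188 and -154 in Ifit3b.

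Of the 43 listed genes, 31 had a RefSeq window, and 18 of these (58.1%) held the ISRE core, against 3.99% of 27025 mouse genes. The gamma-activated site, searched as TTCNNNGAA, was found in 5 of the 31 (16.1%), against 9.55% of all genes, and 1 of these matches, in Bst2, overlapped an ISRE match. A match is a description of the letters and not of binding. The ISRE core was present in 10 of the 20 members with a window that were lower after hyphae than in control, in 1 of the 3 that were higher, and in 7 of the 8 that were not called either way.

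**Figure D1:**
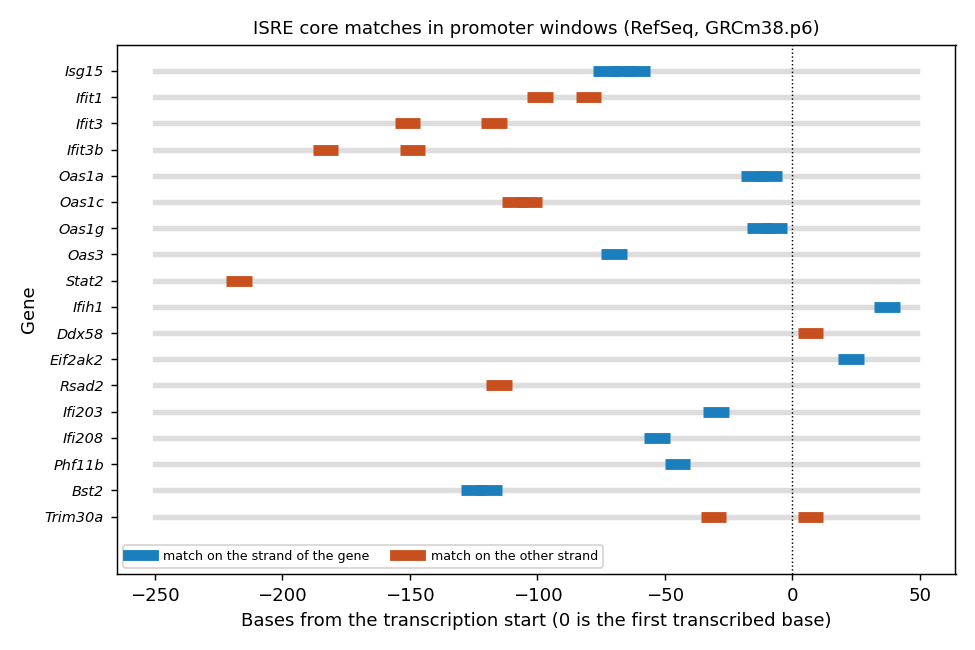
Position of each match to the ISRE core (x axis, bases from the first transcribed base) in the RefSeq windows of the members that hold one (y axis). Colour gives the strand and grey bars the window, and the windows of a gene with several are overlaid (Trim30a). Most matches lie before the start; those of Ifih1, Ddx58 and Eif2ak2 and 1 of Trim30a lie after it.

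The libraries summed to 492540 to 561250 FPKM and held 12451 to 13730 genes at 1 FPKM or more. From the spacing of the lowest values, depth was put at roughly 20100000 to 21400000 fragments, assuming a fragment length of 150 bases. The lowest value of any member, Oas1g at 0.26 FPKM in hyphae replicate 3, then stands for about 10 fragments. All lung markers were present, with surfactant protein C (Sftpc) at 10141 to 24610 FPKM. On the log2(FPKM + 1) scale the median gene after hyphae lay at -0.37 from control and at -0.29 from conidia, while conidia lay at -0.07 from control. For this reason each comparison was also made after rescaling the libraries by median-of-ratios factors, and both versions are given.

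After conidia most members were listed somewhat above control, but 1 passed the test. This was Zbp1, a sensor of Z-form nucleic acid, which rose by 1.35 on the log2 scale. That is 1 of 40 members (2.5%), against 0.596% of all genes called higher, and no member was called lower, against 0.0945% of all genes. The median member lay at 0.20, with 31 members above 0 and 9 below, while the median of all genes was -0.07. After rescaling the median member lay at 0.28 and Zbp1 remained the one member called, against 0.298% of all genes called higher and 0.0436% called lower. In 17 of the 40 members (42.5%) all 3 conidia libraries lay above all 3 controls, against 12% of all genes, and in 1, Samd9l, they lay below, against 17.8%. After rescaling these counts were 21, against 16.4% of all genes, and 1, against 13.3%. An unadjusted p under 0.05 was reached by 16 members, 14 of them higher, and by 2905 of all 13761 genes, 1207 of them higher. Over all genes, 95 were called after conidia, and leaving out a library moved this from 0 (without control replicate 1, 2 or 3 or conidia replicate 3) to 1535 (without conidia replicate 2).

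After hyphae the direction was mostly the opposite, with a small set apart. Compared with control, 26 of 40 members (65%) fell, against 50% of all genes, and 3 rose (7.5%), against 14.9% of all genes. The 3 that rose were Ifit1, Ifit2 and Oasl1. The median member lay at -0.63 and the median gene at -0.37. In 25 members all hyphae libraries lay below all controls, against 53.4% of all genes, and in 2 they lay above, against 17.3%; after rescaling the counts were 16, against 32.5%, and 3, against 34%. After rescaling 14 members (35%) were called lower, against 29.3% of all genes, and 4 (10%) higher, Ifit3 being the fourth, against 30%. The share called lower was therefore near that of all genes once the libraries were rescaled, and the rescaled median member lay at -0.26.

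The hyphae group differed most from the conidia group. Here 30 of 40 members (75%) were lower after hyphae, against 42.5% of all genes, and none was higher, against 12.7%. Of these 30, 26 were also lower than in control, and the other 4 were Isg15, Oas3, Rsad2 and Rtp4. Both comparisons use the same hyphae libraries. In 30 members the hyphae libraries all lay below the conidia libraries, against 45.1% of all genes, and in none above, against 14.8%. Rescaled, these counts were 25, against 28.6%, and 1, against 28.5%. After rescaling 24 members (60%) were lower, against 25.4% of all genes, and 2 (5%) were higher, Ifit2 and Oasl1, against 25.4%. The median member lay at -0.91, or -0.66 rescaled, and the median gene at -0.29. In whole lung, fewer cells of a type and less RNA per cell cannot be told apart.

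**Figure D2:**
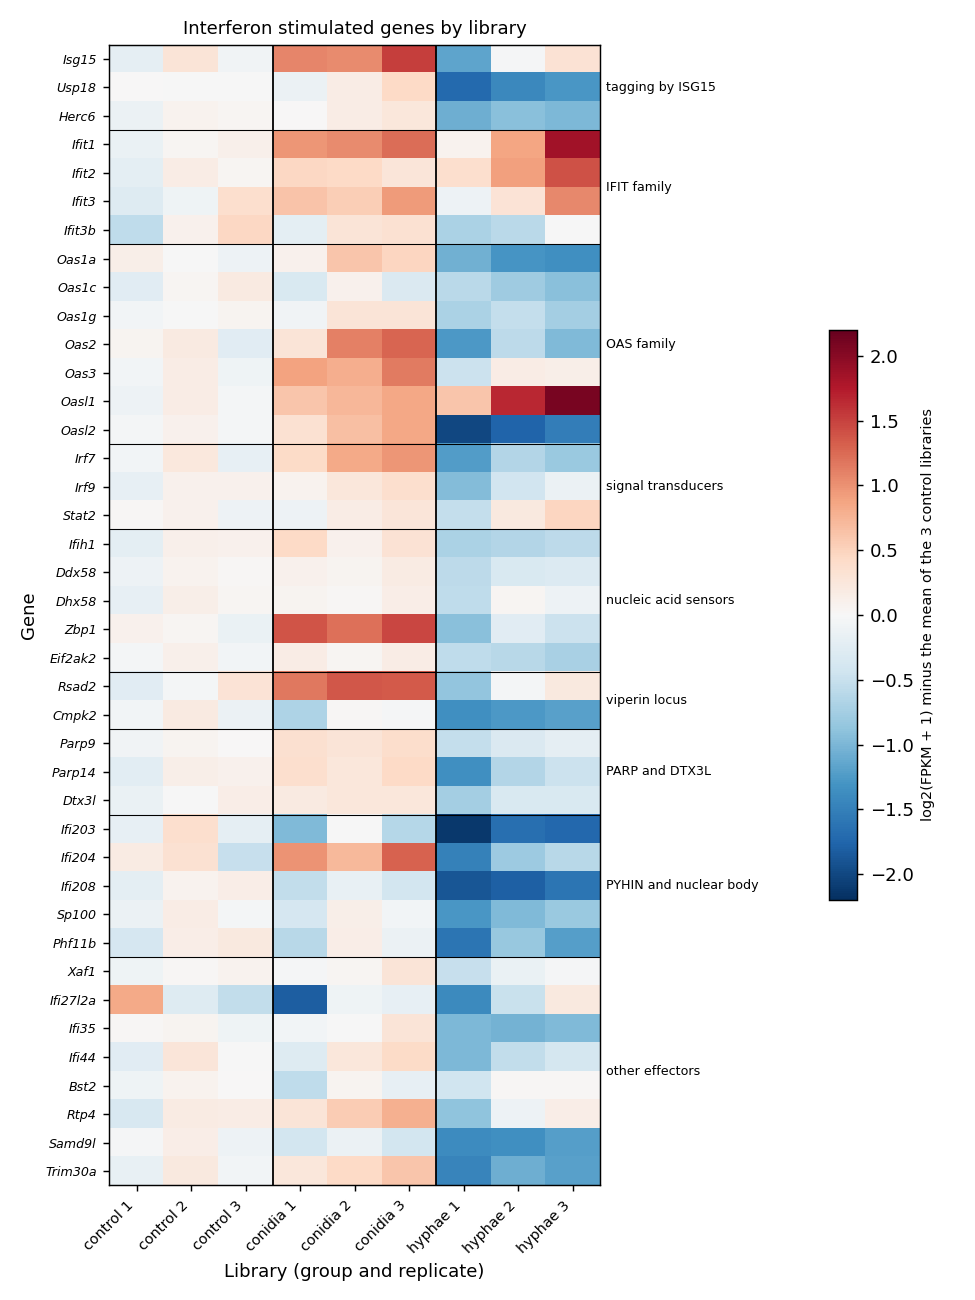
Level of each of the 40 members in each of the 9 libraries, as log2(FPKM + 1) minus the mean of the 3 control libraries, with rows ordered by role. Blue fields fill most of the hyphae columns, while Ifit1, Ifit2 and Oasl1 lie above the control mean there, Ifit1 only slightly in replicate 1. Some others, such as Ifit3 and Stat2, lie above it in hyphae replicates 2 and 3 only. Hyphae replicate 1 is the lowest hyphae library in 35 of 40 members.

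**Figure D3:**
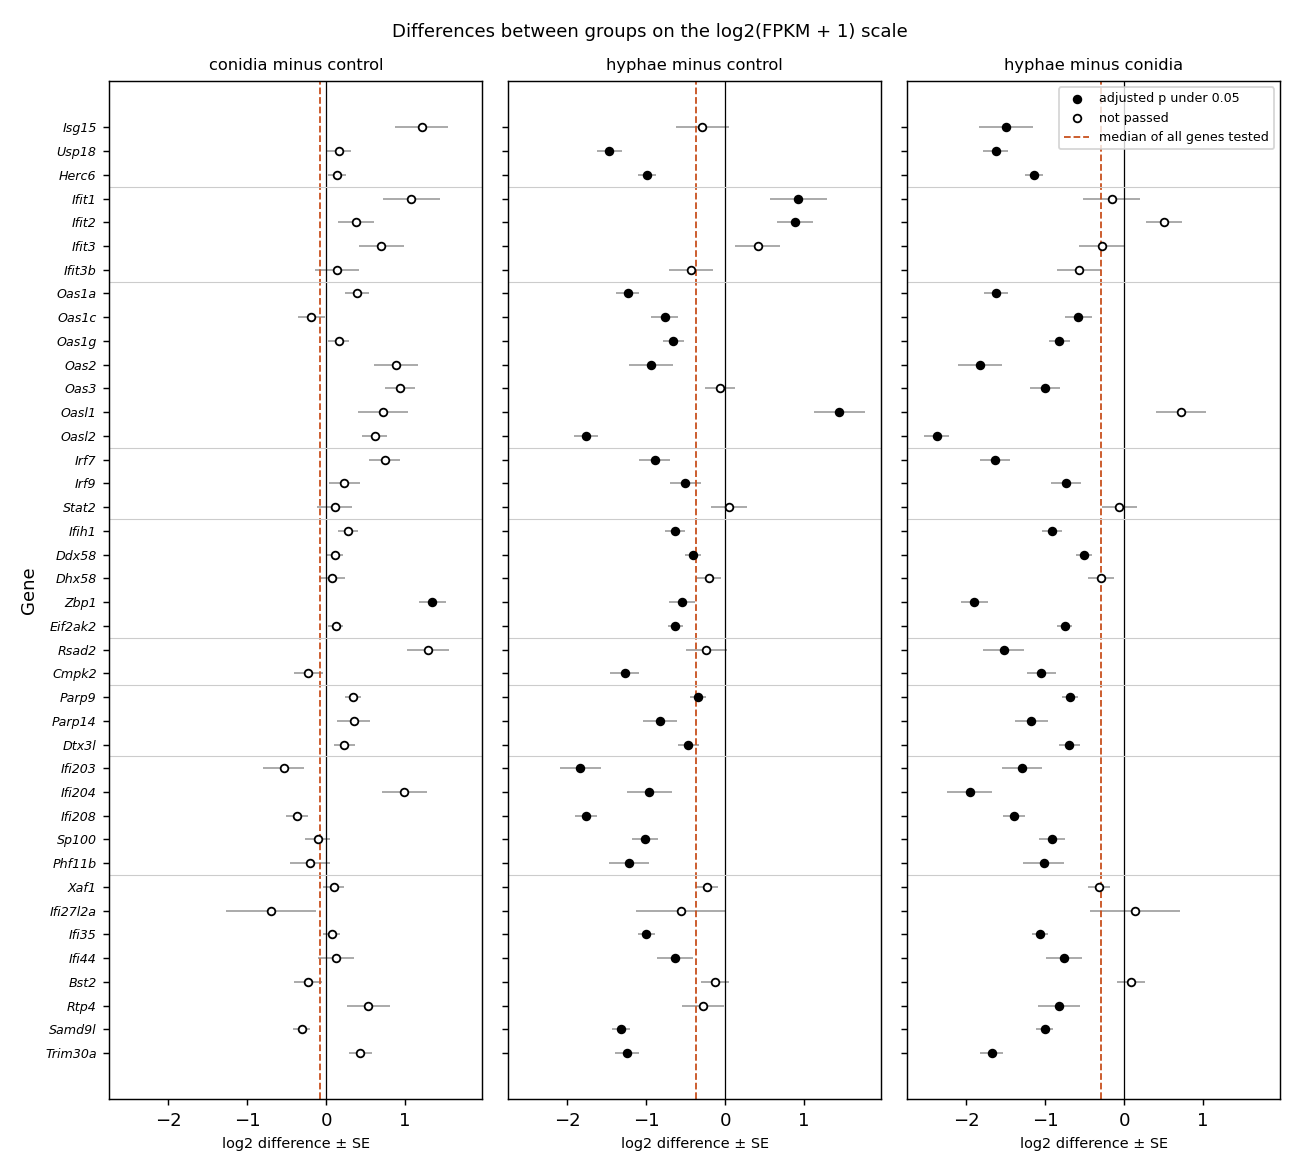
Difference of each member on the log2(FPKM + 1) scale with its standard error (x axis) in the 3 comparisons, by gene (y axis). The dashed line marks the median of all genes tested. Filled points passed an adjusted p of 0.05 in limma and open points did not; 1 point is filled for conidia against control, 29 for hyphae against control and 30 for hyphae against conidia.

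The first role is tagging by ISG15, a ubiquitin-like protein that is attached to other proteins. Isg15 stood at 9.20, 13.2 and 10.1 FPKM in control replicates 1 to 3, at 23.6, 23.2 and 32.8 FPKM after conidia, and at 4.27, 10.5 and 13.7 FPKM after hyphae. All conidia libraries lay above all others, and the hyphae and control libraries overlapped. The difference from control after conidia was 1.21 ± 0.34 (log2, SE, n = 3 per group), with an adjusted p of 0.114 in limma, so it was not called. Isg15 was lower after hyphae than after conidia, by -1.50 ± 0.34 (adjusted p = 0.00562 in limma; rescaled -1.19, adjusted p = 0.0264).

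Usp18, the protease that removes ISG15 and restrains the receptor, took another course. Its level was 11.4, 11.2 and 11.1 FPKM in control, 10.2, 12.7 and 15.7 FPKM after conidia and 2.72, 3.60 and 4.02 FPKM after hyphae. The control and conidia libraries overlapped, and every hyphae library lay below them. Usp18 fell by 1.47 on the log2 scale from control to hyphae (SE 0.16, adjusted p = 0.000113 in limma), and by 1.10 after rescaling. Herc6, an E3 ligase that attaches ISG15 in the mouse, had 3.70 to 4.41 FPKM in control, 4.13 to 5.11 FPKM after conidia and 1.42 to 1.69 FPKM after hyphae. It too was lower after hyphae, by -0.995 ± 0.115 against control (adjusted p = 0.000148 in limma) and by -1.14 ± 0.11 against conidia (adjusted p = 0.000115).

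The IFIT proteins bind viral RNA that lacks the host's cap methylation, and their genes lie side by side. This was the family in which no member was called lower in any comparison. Ifit1 stood at 6.38, 7.48 and 7.85 FPKM in control, at 15.2, 15.9 and 18.3 FPKM after conidia and at 7.62, 14.0 and 28.5 FPKM after hyphae. The conidia libraries lay close together above control, whereas the hyphae libraries ran from within the control range to the highest value of all 9. Against control the difference was 1.08 ± 0.36 after conidia (adjusted p = 0.150 in limma) and 0.93 ± 0.36 after hyphae (adjusted p = 0.0479). The hyphae call was lost in 8 of the 9 fits that left out a library (adjusted p up to 0.123) and kept without hyphae replicate 1.

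Ifit2 was at 5.27, 7.19 and 6.54 FPKM in control, at 8.99, 8.82 and 7.77 FPKM after conidia and at 8.39, 12.6 and 18.2 FPKM after hyphae. All treated libraries lay above all controls. Ifit2 rose by 0.89 ± 0.23 after hyphae (log2, SE, adjusted p = 0.00814 in limma), or 1.28 rescaled, and held this call in all 9 fits that left out a library. After conidia the difference was 0.38 ± 0.23 (adjusted p = 0.352). From conidia to hyphae it was 0.50 ± 0.23 (adjusted p = 0.0908), and 0.81 after rescaling (adjusted p = 0.0293).

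Ifit3 was the most abundant of the family, at 26.3, 30.1 and 42.0 FPKM in control, 50.02, 47.2 and 62.8 FPKM after conidia and 29.7, 40.03 and 67.9 FPKM after hyphae. Its conidia libraries lay above control, and its hyphae libraries spanned both groups. The difference was 0.70 ± 0.29 after conidia (adjusted p = 0.210 in limma) and 0.42 ± 0.29 after hyphae (adjusted p = 0.227), which passed only after rescaling (0.84, adjusted p = 0.0464). Ifit3b, with 5.38 to 11.8 FPKM in control, 7.06 to 10.9 FPKM after conidia and 4.79 to 8.25 FPKM after hyphae, was not called in any comparison. Ifit3 and Ifit3b are close copies, and the sources used here do not state how fragments were divided between them.

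The OAS family is named for enzymes that make 2′-5′ oligoadenylates, which activate RNase L, though not every member has that activity. Against control, 5 of the 7 members analysed fell after hyphae (71.4%, against 50% of all genes) and 1 rose (14.3%, against 14.9%). After rescaling 4 were lower (57.1%, against 29.3%). Oasl1 was at 2.01, 2.65 and 2.16 FPKM in control, 3.99, 4.39 and 4.86 FPKM after conidia and 3.96, 9.32 and 12.9 FPKM after hyphae. Every treated library lay above every control. Oasl1 rose by 1.45 ± 0.32 after hyphae (log2, SE, adjusted p = 0.00366 in limma; rescaled 1.80), in all 9 fits that left out a library, while the conidia difference of 0.73 ± 0.32 was not called (adjusted p = 0.233).

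Oasl2, its neighbour in name, moved the other way after hyphae. Its level was 33.0, 36.7 and 33.2 FPKM in control, 43.5, 54.8 and 62.7 FPKM after conidia and 7.81, 9.33 and 11.3 FPKM after hyphae. The 3 groups did not overlap, with conidia highest and hyphae lowest. Oasl2 fell by 1.76 from control to hyphae (SE 0.16, adjusted p = 5.1e-05 in limma) and differed by -2.38 ± 0.16 between hyphae and conidia (adjusted p = 2.8e-05), the largest difference of any member in that comparison. The conidia difference from control of 0.62 ± 0.16 was not called (adjusted p = 0.0922).

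**Figure D4:**
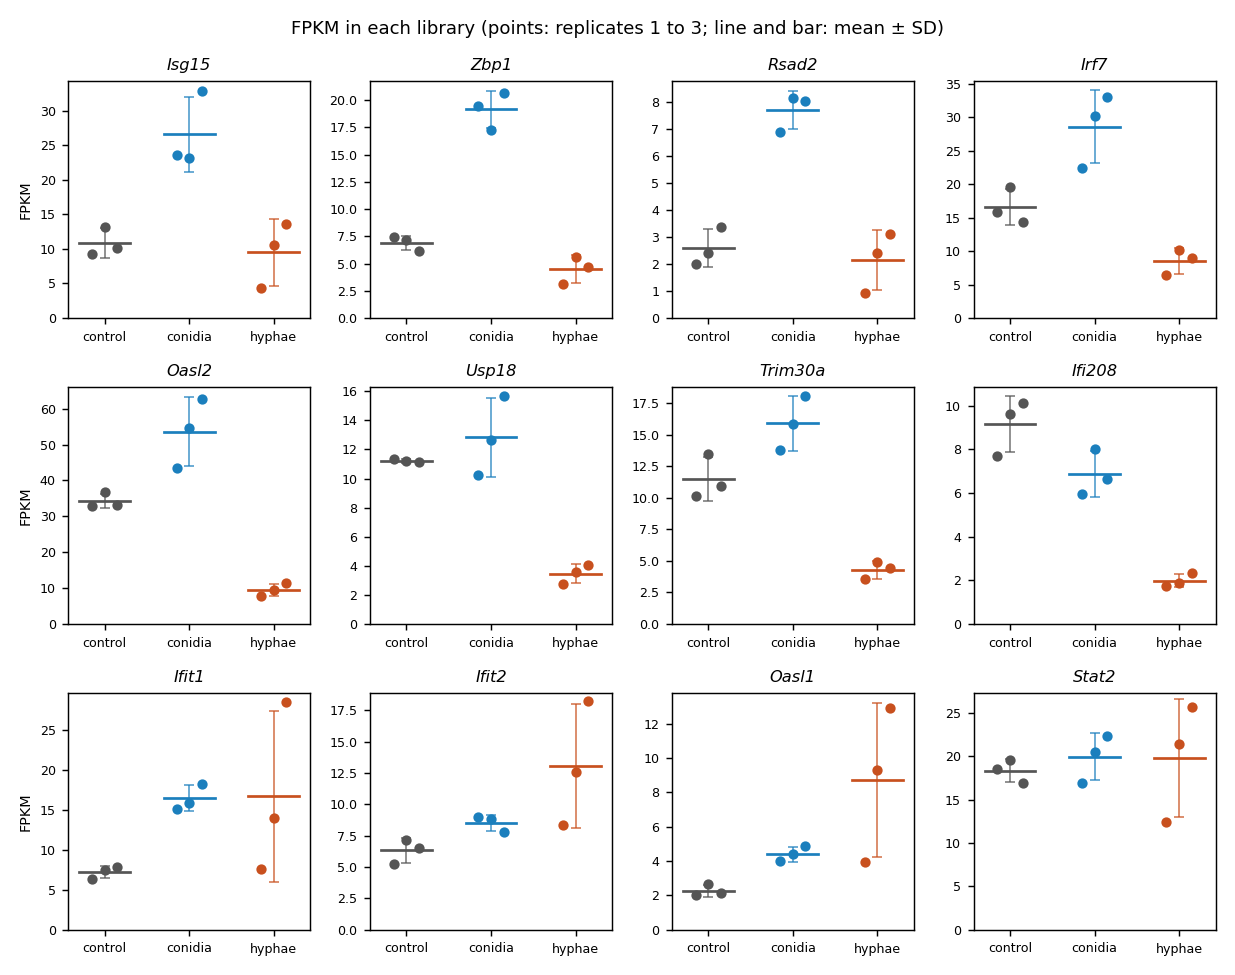
FPKM (y axis, from 0) of 12 members in the control, conidia and hyphae libraries (x axis); each point is a library, each line a group mean and each bar the SD. Ifit2 and Oasl1 are highest in hyphae replicates 2 and 3, whereas Oasl2, Usp18 and Irf7 are lowest in the 3 hyphae libraries.

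Oas1a was at 7.63, 6.85 and 6.37 FPKM in control, 7.43, 11.1 and 10.04 FPKM after conidia and 2.80, 2.23 and 2.10 FPKM after hyphae. All hyphae libraries lay below the others, and control and conidia overlapped. It was lower after hyphae by -1.24 ± 0.15 against control (adjusted p = 0.000195 in limma) and by -1.63 ± 0.15 against conidia (adjusted p = 8.5e-05). Its close relatives Oas1c, at 2.89 to 4.28 FPKM in control and 1.43 to 2.04 FPKM after hyphae, and Oas1g, at 1.03 to 1.21 FPKM in control and 0.26 to 0.46 FPKM after hyphae, were also called lower than in control and than after conidia. The Oas1c call against conidia was lost on rescaling (-0.36) and without conidia replicate 2 or hyphae replicate 2 or 3. These paralogs share sequence, so their separate values are uncertain.

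Oas2 was at 4.88, 5.49 and 3.73 FPKM in control, 5.86, 11.2 and 12.7 FPKM after conidia and 1.36, 2.79 and 1.87 FPKM after hyphae, so that the groups did not overlap. The conidia difference of 0.89 ± 0.28 was not called (adjusted p = 0.132 in limma). After hyphae it was lower than control by -0.94 ± 0.28 (adjusted p = 0.0150), a call lost on rescaling (-0.62, adjusted p = 0.0767) and without control replicate 2. Oas3 was at 1.25 to 1.69 FPKM in control and at 3.17 to 4.35 FPKM after conidia, a difference that did not pass the test (0.94 ± 0.19, adjusted p = 0.0595), and at 0.73 to 1.71 FPKM after hyphae.

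Among the signal transducers, IRF7 amplifies interferon production and STAT2 with IRF9 forms the DNA-binding complex ISGF3. Irf7 was at 15.8, 19.5 and 14.4 FPKM in control, 22.4, 30.2 and 33.0 FPKM after conidia and 6.41, 10.2 and 8.94 FPKM after hyphae. The groups did not overlap, and conidia were again highest. The conidia difference of 0.74 ± 0.19 was not called (adjusted p = 0.0962 in limma). After hyphae Irf7 was lower than control by -0.89 ± 0.19 (adjusted p = 0.00327; rescaled -0.50, adjusted p = 0.0590) and lower than conidia by -1.64 ± 0.19 (adjusted p = 0.000223; rescaled -1.33).

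Stat2 was the transducer with no call. Its values were 18.5, 19.5 and 16.9 FPKM in control, 17.0, 20.5 and 22.3 FPKM after conidia and 12.4, 21.4 and 25.7 FPKM after hyphae, and the groups overlapped. Its differences were 0.11 ± 0.23 after conidia (adjusted p = 0.802 in limma) and 0.05 ± 0.23 after hyphae (adjusted p = 0.855). Irf9, with 21.2 to 25.9 FPKM in control, 25.5 to 31.6 FPKM after conidia and 12.0 to 21.96 FPKM after hyphae, was called lower after hyphae than in control (-0.50 ± 0.19, adjusted p = 0.0448). That call was lost on rescaling (-0.09) and without any of control replicates 2 and 3, conidia replicates 1 to 3 and hyphae replicates 1 and 2.

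Among the nucleic acid sensors, Zbp1 gave the one call after conidia. Its level was 7.39, 7.15 and 6.14 FPKM in control, 19.5, 17.3 and 20.7 FPKM after conidia and 3.14, 5.64 and 4.67 FPKM after hyphae. The 3 groups did not overlap. Zbp1 rose by 1.35 ± 0.17 after conidia (log2, SE, adjusted p = 0.0244 in limma; rescaled 1.43, adjusted p = 0.0453). The call was kept in 4 of the 9 fits that left out a library and lost without any one control library, conidia replicate 1 or conidia replicate 3, with adjusted p up to 0.155 and differences of 1.28 to 1.42.

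After hyphae Zbp1 was lower than after conidia by -1.90 ± 0.17 (adjusted p = 7.1e-05 in limma; rescaled -1.61). It was also lower than control (-0.55 ± 0.17, adjusted p = 0.0177), a call lost on rescaling (-0.18) and without control replicate 1 or 2. Ifih1, which codes for the RNA sensor MDA5, stood at 8.22, 10.6 and 10.5 FPKM in control, 13.5, 10.4 and 12.3 FPKM after conidia and 5.61, 5.87 and 6.22 FPKM after hyphae. The hyphae libraries lay below all others, and control and conidia overlapped. Ifih1 was lower after hyphae than control by -0.63 ± 0.13 (adjusted p = 0.00220; rescaled -0.25, adjusted p = 0.184) and lower than conidia by -0.91 ± 0.13 (adjusted p = 0.000478; rescaled -0.62), while its conidia difference of 0.28 ± 0.13 was not called (adjusted p = 0.246).

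Ddx58, the gene of the RNA sensor RIG-I, had 14.3 to 16.4 FPKM in control, 16.1 to 17.6 FPKM after conidia and 10.02 to 12.4 FPKM after hyphae. Eif2ak2, the kinase PKR that halts translation when it binds double-stranded RNA, had 7.97 to 9.14, 8.74 to 9.52 and 4.72 to 5.37 FPKM in the same order. Both were called lower after hyphae than in control and than after conidia, and neither was called against control after rescaling (0.000734 and -0.26). Against conidia the call of Ddx58 was also lost on rescaling (-0.20, adjusted p = 0.219 in limma). Eif2ak2 kept its call there (-0.47, adjusted p = 0.00494). Dhx58, which codes for LGP2, a regulator of both RNA sensors, was at 2.19 to 4.22 FPKM over all libraries and was not called.

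Rsad2 codes for viperin, an enzyme that makes a chain-terminating nucleotide, and Cmpk2 beside it for a nucleotide kinase. Rsad2 was at 1.98, 2.42 and 3.36 FPKM in control, 6.87, 8.15 and 8.04 FPKM after conidia and 0.93, 2.42 and 3.11 FPKM after hyphae. The conidia libraries stood above all others, and the control and hyphae libraries overlapped. The conidia difference of 1.29 ± 0.26 narrowly missed the threshold (adjusted p = 0.0623 in limma). Rsad2 was lower after hyphae than after conidia (-1.53 ± 0.26, adjusted p = 0.00141) and did not differ from control by more than its error (-0.24 ± 0.26, adjusted p = 0.450). Cmpk2 did not share the high conidia values, with 7.55 to 9.67 FPKM in control, 4.87 to 8.52 FPKM after conidia and 2.66 to 3.07 FPKM after hyphae. It fell by 1.27 from control to hyphae (adjusted p = 0.000424; rescaled -0.92).

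PARP9 and PARP14 modify proteins with ADP-ribose, and DTX3L is the ubiquitin ligase that partners PARP9. Parp9 had 13.6 to 15.2 FPKM in control, 17.8 to 19.3 FPKM after conidia and 9.81 to 12.5 FPKM after hyphae. Parp14 had 11.3 to 14.9, 16.2 to 18.5 and 4.67 to 9.38 FPKM, and Dtx3l 6.64 to 8.36, 8.70 to 9.04 and 4.06 to 5.73 FPKM, in the same order. All 3 genes had non-overlapping groups with conidia highest. Of all genes, 12% had all conidia libraries above control, and 53.4% and 45.1% had all hyphae libraries below control and below conidia. All 3 were called lower after hyphae in both comparisons, against 50% of all genes relative to control and 42.5% relative to conidia. None of the 3 calls against control remained after rescaling, with differences of 0.06, -0.43 and -0.10, so that of Parp9 turned sign. Those of Parp9 and Dtx3l were also lost without control replicate 2 and 3 respectively. Against conidia Parp9 and Parp14 were still called after rescaling (-0.37 and -0.87).

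The PYHIN proteins IFI203, IFI204 and IFI208 belong to the family of DNA-binding interferon-inducible proteins, and SP100 is a scaffold of nuclear bodies. Ifi208 was at 7.71, 9.59 and 10.1 FPKM in control, 5.96, 8.02 and 6.64 FPKM after conidia and 1.75, 1.89 and 2.31 FPKM after hyphae. Its hyphae libraries lay well below both other groups, which overlapped. Ifi208 had the smallest adjusted p of any member for hyphae against control (-1.76 ± 0.14, adjusted p = 3.8e-05 in limma; rescaled -1.43), and was lower than conidia by -1.40 ± 0.14 (adjusted p = 0.000121).

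Ifi203 had 20.8 to 31.1 FPKM in control, 11.7 to 23.8 FPKM after conidia and 4.69 to 6.91 FPKM after hyphae, and showed the most negative difference of any member against control (-1.83 ± 0.26, adjusted p = 0.000385). Ifi204, by contrast, was highest after conidia, with 2.68 to 5.56 FPKM in control, 7.56 to 11.8 FPKM after conidia and 0.86 to 2.43 FPKM after hyphae. These 3 genes are paralogs, and the sources used here do not state how fragments that match several were counted. Sp100 had 41.9 to 51.5, 35.0 to 49.9 and 18.3 to 25.6 FPKM, and Phf11b 7.26 to 11.4, 5.99 to 10.7 and 2.48 to 4.95 FPKM, in the same order. All 5 genes of this role were called lower after hyphae in both comparisons. Of all genes, 50% were called lower relative to control and 42.5% relative to conidia. After rescaling 4 of the 5, all but Ifi204, kept the call relative to control, with 29.3% of all genes called lower. The call of Ifi204 relative to control was also lost without control replicate 1 or 2.

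Of the 8 other effectors, 4 were lower after hyphae than in control, the same share as the 50% of all genes, and 3 (37.5%) after rescaling, against 29.3%. Samd9l, a translation inhibitor, was at 19.5, 22.2 and 18.5 FPKM in control, 14.9, 18.3 and 14.95 FPKM after conidia and 7.03, 7.25 and 8.05 FPKM after hyphae. It was the one member whose conidia libraries all lay below control. Samd9l fell by 1.32 from control to hyphae (SE 0.11, adjusted p = 4.3e-05 in limma; rescaled -0.92), and its conidia difference of -0.31 ± 0.11 was not called (adjusted p = 0.168).

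Ifi35, a partner of NMI, was at 39.1, 40.1 and 35.9 FPKM in control, 36.7, 38.2 and 46.7 FPKM after conidia and 18.9, 18.02 and 19.1 FPKM after hyphae. The hyphae libraries lay close together below all others. Ifi35 fell by 0.999 from control (SE 0.104, adjusted p = 9.6e-05 in limma) and was lower than conidia by -1.07 ± 0.10 (adjusted p = 0.000102). Trim30a, a restraint on innate signalling, was at 10.1, 13.5 and 11.0 FPKM in control, 13.8, 15.9 and 18.1 FPKM after conidia and 3.53, 4.90 and 4.41 FPKM after hyphae. Its groups did not overlap, and it was lower after hyphae by -1.25 ± 0.15 against control (adjusted p = 0.000171) and by -1.68 ± 0.15 against conidia (adjusted p = 7.1e-05).

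Ifi44 had 3.62 to 5.61 FPKM in control and 1.78 to 3.23 FPKM after hyphae, and its call (-0.64 ± 0.23, adjusted p = 0.0344 in limma) was lost on rescaling (-0.30) and without control replicate 2 or 3 or hyphae replicate 1 or 2. Rtp4 was called lower than after conidia only (-0.82 ± 0.27, adjusted p = 0.0278), and not after rescaling (-0.51) or without conidia replicate 2 or 3 or hyphae replicate 1. Xaf1, Bst2 and Ifi27l2a were not called in any comparison. Bst2, the surface protein tetherin that holds budding virus, was abundant throughout, at 77.5 to 87.6 FPKM in control, 55.8 to 86.1 FPKM after conidia and 60.3 to 84.3 FPKM after hyphae. Ifi27l2a spread widely within groups, from 46.9 to 124 FPKM in control and from 19.0 to 64.4 FPKM after conidia.

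The replicates within a group did not stand level for the members as a set. Hyphae replicate 1 was the lowest hyphae library for 35 of the 40 members and hyphae replicate 3 the highest for 25. Relative to control, the median member lay at -0.94, -0.56 and -0.48 in hyphae replicates 1, 2 and 3, and at 0.09, 0.25 and 0.33 in conidia replicates 1, 2 and 3. After rescaling the hyphae values were -0.65, -0.17 and -0.07. Neutrophil markers moved across the same libraries: their median lay at 2.03, 2.92 and 4.55 in the hyphae libraries and at 3.07, 2.14 and 3.21 in the conidia libraries. The part of neutrophil content in the members' values was not tested.

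**Figure D5:**
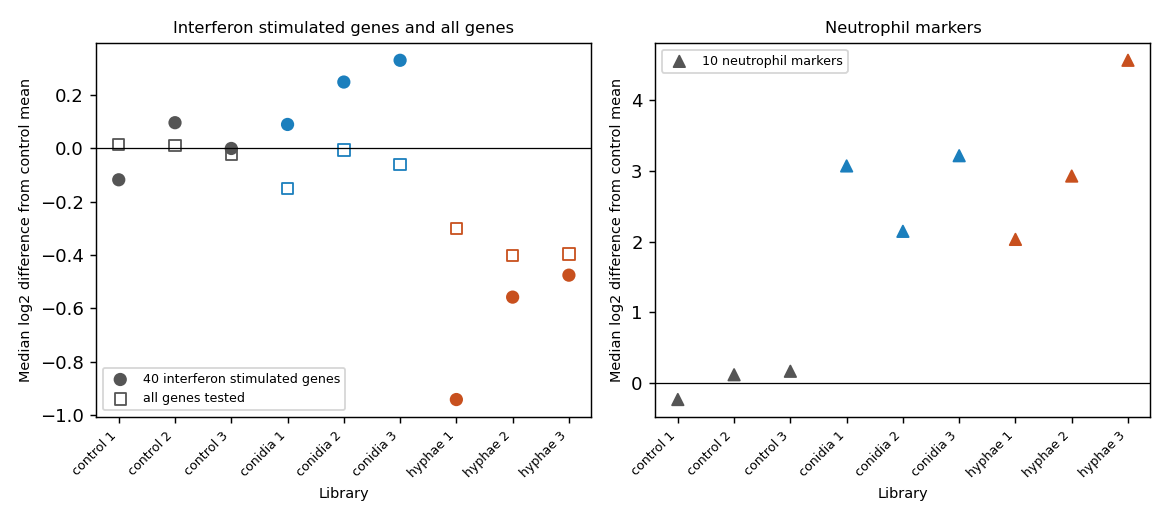
Median difference from the control mean on the log2(FPKM + 1) scale (y axis) in each of the 9 libraries (x axis), for the 40 members, all tested genes and the neutrophil markers. In the hyphae libraries the members lie between -0.94 and -0.48, below the median of all genes, while the neutrophil markers lie between 2.03 and 4.55.

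Markers of other cell types were counted in the same way, against 14.9% of all genes called higher and 50% called lower after hyphae than in control (30% and 29.3% rescaled). The 10 neutrophil markers summed to 121 to 197 FPKM in control, 870 to 3135 FPKM after conidia and 654 to 5278 FPKM after hyphae, with 8 called higher and 1 lower after hyphae, also when rescaled. The 14 markers of monocytes and macrophages summed to 245 to 333, 402 to 753 and 278 to 454 FPKM, and after hyphae 1 was called higher and 5 lower than in control (35.7% lower, below the share of all genes; rescaled 3 higher and 2 lower). Of the markers tested, 6 of 7 for B cells (3 rescaled) and 8 of 10 for T and NK cells (6 rescaled) were called lower after hyphae than in control. For plasmacytoid dendritic cells, a main source of type I interferon, 2 of 5 were lower (40%, below the share of all genes; rescaled 1 lower and 1 higher). Against conidia, 8 of the 14 monocyte and macrophage markers were lower after hyphae (57.1%, against 42.5% of all genes) and 0 higher. After rescaling 4 of them were lower (28.6%, against 25.4%). In that comparison, before rescaling, 2 of 10 neutrophil, 2 of 7 B cell, 1 of 10 T and NK cell and 1 of 5 plasmacytoid dendritic cell markers were lower. No defining marker of these lists was at 0 in all libraries of a group. The part of these cell types in the members' lower values was not tested.

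Upstream of the members, the interferon genes themselves were near or at 0. Of 18 type I and type III ligands listed, 9 had a row and none passed the filter. Ifnb1 was listed at 0 in all controls, at 0.07, 0 and 0 FPKM after conidia and at 0.14, 0.35 and 0.58 FPKM after hyphae, the last 3 standing for about 2, 4 and 7 fragments. Ifnab was listed at 0 in all control and conidia libraries and at 0.16, 0.33 and 0.34 FPKM after hyphae, or about 3, 6 and 6 fragments. Both ligands were thus listed above 0 in each hyphae library, at levels too low for the test.

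The receptor genes were tested alongside. Ifnar1 was at 19.4, 18.9 and 19.3 FPKM in control, 23.6, 22.2 and 19.7 FPKM after conidia and 14.99, 19.01 and 17.9 FPKM after hyphae. It was not called against control in either group, and its lower level after hyphae than after conidia (-0.32 ± 0.11, adjusted p = 0.0289 in limma) vanished on rescaling (-0.00). Ifnar2 was not called in any comparison on the deposited scale, and was called higher after hyphae than in control after rescaling (0.57, adjusted p = 0.00692 in limma). Ifnlr1, for type III interferon, stood at 6.56 to 7.77 FPKM in control, 6.48 to 8.40 after conidia and 6.00 to 7.71 after hyphae. Its partner Il10rb stood at 54.5 to 56.7, 61.1 to 75.9 and 36.0 to 41.8 FPKM in the same order, without overlap. The kinase gene Tyk2 was at 11.1 to 13.0 FPKM in control and 5.29 to 5.87 FPKM after hyphae. Jak1 went the other way, from 31.0 to 41.0 FPKM in control to 50.6 to 64.4 FPKM after hyphae.

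Socs3, a feedback inhibitor of cytokine receptors, was higher after hyphae than in control, with a mean of 17.0 ± 3.08 FPKM in control and 389 ± 207 FPKM after hyphae (SD, n = 3; log2 difference 4.30 ± 0.46, adjusted p = 0.000113 in limma). After conidia Socs3 stood at 150, 49.96 and 87.6 FPKM, also above all controls, but was not called. Among 14 genes of interferon induction, 2 were higher (14.3%, against 14.9% of all genes) and 6 lower (42.9%, against 50%) after hyphae than in control. On the deposited scale these shares were near or below those of all genes. After rescaling 3 were higher (21.4%, against 30%) and 5 lower (35.7%, against 29.3%). Before rescaling Irf3, the factor that starts interferon transcription, fell by 1.46 after hyphae (adjusted p = 2.6e-05 in limma). Myd88, the adaptor of most Toll-like receptors, rose by 1.57 (adjusted p = 0.000386) and the kinase gene Tbk1 by 0.93 (adjusted p = 0.00119). After conidia 1 of the 14 was called: Tmem173, the gene of STING, which rose by 1.06 (adjusted p = 0.0244). It was lower after hyphae than after conidia by -1.40 ± 0.14 (adjusted p = 0.000102). In that comparison 10 of the 14 genes were lower (71.4%, against 42.5% of all genes) and 2 higher (14.3%, against 12.7%), and after rescaling 6 were lower (42.9%, against 25.4%).

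A further 47 interferon stimulated genes outside the 40 were tested. Of these, 25 were lower and 4 higher after hyphae than in control (53.2% and 8.51%, against 50% and 14.9% of all genes), with a median of -0.52. After rescaling 15 were lower and 10 higher (31.9% and 21.3%, against 29.3% and 30%). The shares called lower were near those of all genes. Against conidia 28 were lower (59.6%, against 42.5% of all genes; 20 rescaled, or 42.6%, against 25.4%) and 1, the DNA sensor gene Aim2, higher (0.57 ± 0.21, adjusted p = 0.0447 in limma). The share higher was 2.13%, against 12.7% of all genes, and after rescaling 5 were higher (10.6%, against 25.4%). The smallest adjusted p values among those lower than control belonged to Trim12c (-1.63), Tnfsf10, which codes for the death ligand TRAIL (-3.10), Parp11 (-1.46) and Trim34a (-2.20). Cxcl10, a chemokine for T cells, was among those higher, by 3.64 ± 0.52 (adjusted p = 0.000407 in limma), with a mean of 83.5 ± 76.4 FPKM after hyphae (SD, n = 3) and 4.23 ± 0.77 FPKM in control. Its hyphae libraries stood at 30.15, 49.3 and 171 FPKM in replicates 1 to 3. After conidia Cxcl10 stood at 29.6, 40.1 and 27.8 FPKM, also above all controls, but was not called. Ifitm2 was higher after hyphae than in control by 0.88 ± 0.19 (adjusted p = 0.00358 in limma). After conidia 1 of the 47 was called, Ifitm1, which rose by 1.58 ± 0.20 (adjusted p = 0.0244). Like Tmem173, it lost its call in the 4 fits, named above, in which no gene was called after conidia. Without conidia replicate 1 only 1 gene of all was called, so at least 1 of these 2 calls was lost there too. Without hyphae replicate 2 only 7 genes were called.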

How the data were processed

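RNA from 9 whole-lung libraries had been sequenced on a BGISEQ instrument, per the labels' protocols. The authors deposited FPKM with 2 decimals, 1 file per library, per the file headers. HISAT, Bowtie2 and the build mm9 are named without roles in the submitters' processing notes, and the sources used here do not name the tool that computed FPKM. Values were transformed to log2(FPKM + 1), so differences of low genes are understated. Genes at 1 FPKM or more in at least 3 of 9 libraries (13761) were fitted in R 4.3.3 with limma 3.58.1 (trend, robust), with 1 term per group. P-values were two-sided, adjusted by Benjamini and Hochberg over all genes tested, and called under 0.05. With 3 libraries a group, a two-sided exact permutation test reaches no p below 0.1. For rescaling, libraries were divided by median-of-ratios factors over genes above 0 in all 9, which sets the median gene near 0.

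The members and gene lists were chosen with earlier results of these data known. Values in every library were given for up to 8 members with the smallest adjusted p per direction and comparison, and for Isg15, Ifit1, Ifit3, Oas2, Irf7, Stat2, Zbp1, Rsad2 and Ifih1. Among other pathway genes, Ifnb1, Ifnab, the receptors and their kinases Jak1 and Tyk2 were named. Of the rest, those among the 5 smallest adjusted p per direction were named. One gene that this rule names is not reported here. The fit was tried on simulated data in which a small set of genes was shifted and the median gene was not. That trial does not cover the shift of the median gene seen after hyphae. Promoter windows are from RefSeq on GRCm38.p6, not the build of the FPKM values.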

Additional observations from a re-analysis of the deposited data

How the results depend on the processing

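After rescaling 18 members rather than 29 were called for hyphae against control, 14 of them lower, and 2 rather than 0 were higher for hyphae against conidia. Members above 0 went from 5 to 14 against control. Parp9 (0.06) and Ddx58 (0.000734), called lower before, turned sign, as did the uncalled Isg15 (0.10), Rsad2 (0.0631), Oas3 (0.19), Dhx58 (0.13), Xaf1 (0.18), Bst2 (0.30) and Rtp4 (0.12). Against conidia the uncalled Ifit1 (0.16), Ifit3 (0.0421) and Stat2 (0.26) turned. For conidia against control, fitting only those 6 libraries gave 5 called members, all higher (Isg15, Ifit1, Oas3, Zbp1 and Rsad2). No label states that the replicate numbers pair the samples. Deviations of same-numbered libraries correlated from -0.31 to 0.42, and those of unlike-numbered ones from -0.54 to 0.30. With 3 libraries a group these correlations cannot decide whether samples were paired. With the replicate number as a block, 2 members were called, both higher, for conidia against control (Zbp1 and Rsad2), and the other comparisons stayed within 1.5 times. A pseudocount of 0.1, no filter and no trend left every member count within 1.5 times.

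Leaving out a library in turn gave 0 to 4 called members for conidia against control, all higher (4 without hyphae replicate 1, 3 without conidia replicate 2, 0 without any control library or conidia replicate 1 or 3), 22 to 28 for hyphae against control and 27 to 31 for hyphae against conidia. Members higher for hyphae against conidia numbered 0 to 2, the 2 without hyphae replicate 1. Signs turned in some of these fits for uncalled differences. Against control after hyphae, Stat2 ran from -0.16 to 0.34, Isg15 from -0.59 to 0.15 and Rsad2 from -0.46 to 0.0820. Against conidia, Stat2 ran from -0.27 to 0.23 and Ifit1 from -0.62 to 0.27. Of the 26 members lower against control, 19 kept the call in all 9 such fits, and 14 did so and also after rescaling. Against conidia these numbers were 27 and 24 of 30. The cause of these changes was not tested.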

Other observations

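Interferon gamma acts through its own receptor and induces the immunity-related GTPases. Of 8 tested genes of that list none was called after conidia, at a background of 0.596% higher and 0.0945% lower. After hyphae 2 of the 8 were higher and 3 lower than in control (25% and 37.5%, against 14.9% and 50% of all genes). After rescaling 2 were higher and 1 lower (25% and 12.5%, against 30% and 29.3%). Against conidia 1 was higher and 4 lower (12.5% and 50%, against 12.7% and 42.5%; 3 lower rescaled). Ifng itself did not pass the filter. Endothelial markers summed to 607 to 923 FPKM in control, 816 to 885 FPKM after conidia and 1003 to 1187 FPKM after hyphae. Of these 8, 3 were higher and 1 lower after hyphae than in control (37.5% and 12.5%, against 14.9% and 50% of all genes). After rescaling 3 were higher and 0 lower (37.5% and 0%, against 30% and 29.3%), so the share higher was near that of all genes.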
